A study of Mus musculus with 33 samples.

Results

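Interferon-stimulated genes are genes whose transcription rises when a cell senses interferon. The 34 described here were taken by symbol: every row of the counts table whose Ensembl identifier maps to one of 34 listed mouse symbols was used, all 34 were found, and they are 34 of the 54347 gene rows. The rule uses symbols and no measured value, but the 34 symbols were chosen with earlier results of these data known. The data were RNA-seq counts from 33 libraries of mouse ovary in 9 groups and 3 experiments. Experiment 1 held ovaries labelled WT, Fshb(+/-) and Fshb(-/-), with 3 libraries each. Experiment 2 held ovaries labelled Fshb(-/-) and Fshb(-/-) HFSHB, the latter carrying a human FSHB transgene on the knockout background and called rescue below, with 4 libraries each. Experiment 3 held 4 libraries each of cycling WT mice at the estrous stages DE, PE and E and of a group whose stage label is KO (anestrus) and whose genotype label is WT. Fshb encodes the beta subunit of follicle-stimulating hormone (FSH), which the pituitary secretes and which drives growth of ovarian follicles. The sources used here give no age or strain of the mice, no promoter of the transgene and no number of founder lines.

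Type I interferons bind a receptor that activates the kinases JAK1 and TYK2, and these phosphorylate transcription factors of the STAT family. STAT2 and IRF9 act in a complex that binds the interferon-stimulated response element in the promoters of its target genes. The targets include sensors of viral RNA, enzymes that degrade RNA or alter nucleotides, proteins that trap virions at the membrane, and regulators such as IRF7 and USP18 that raise or brake the response. In the ovary of ruminants, ISG15 and related genes of the corpus luteum are known to rise in early pregnancy, when the conceptus secretes interferon tau.

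Letters of the response element were looked for in the promoters of these genes. RefSeq promoter windows (GRCm38.p6; 250 bases before to 50 after an annotated start) matched 25 of the 34 genes. The core of the element, GAAA followed by any 2 bases and a second GAAA, searched on both strands with overlapping matches counted, was present in 15 of the 25 genes, or 60%, against 3.99% of the 27025 genes with a window. In 11 of the 15 a match lay before the start. The core of the gamma-activated site, TTC and GAA with any 3 bases between, which reads the same on both strands and can share bases with the first motif, was present in 7 of the 25, or 28%, against 9.55%. The windows of 5 genes are shown because they carry the motif before the start and belong to genes whose levels are described below. Capitals mark the core of the response element, on either strand, and each sequence is written 5′ to 3′ on the strand of the gene. Ifit1 (chr19:34640639-34640938, plus strand) has matches 104 and 85 bases before the start. Bst2 (chr8:71537423-71537722, minus strand) has a pair of overlapping matches from 130 bases before. Rsad2 (chr12:26456403-26456702, minus strand) has 1 match from 120 bases before. Oas1a (chr5:120907476-120907775, minus strand) has a pair of overlapping matches from 20 bases before, and Isg15 (chr4:156200769-156201068, minus strand) has 3 overlapping matches from 78 bases before.
Ifit1: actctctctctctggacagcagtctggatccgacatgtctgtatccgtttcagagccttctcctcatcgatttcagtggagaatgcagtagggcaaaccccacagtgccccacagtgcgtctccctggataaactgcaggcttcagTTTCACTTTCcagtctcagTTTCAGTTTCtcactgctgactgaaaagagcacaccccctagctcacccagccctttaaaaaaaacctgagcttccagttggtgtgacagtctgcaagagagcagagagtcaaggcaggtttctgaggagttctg
Bst2: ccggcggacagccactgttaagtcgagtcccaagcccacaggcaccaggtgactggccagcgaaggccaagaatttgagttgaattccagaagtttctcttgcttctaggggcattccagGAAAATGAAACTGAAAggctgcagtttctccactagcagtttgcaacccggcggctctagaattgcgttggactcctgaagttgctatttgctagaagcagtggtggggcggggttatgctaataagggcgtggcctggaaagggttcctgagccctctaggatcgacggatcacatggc
Rsad2: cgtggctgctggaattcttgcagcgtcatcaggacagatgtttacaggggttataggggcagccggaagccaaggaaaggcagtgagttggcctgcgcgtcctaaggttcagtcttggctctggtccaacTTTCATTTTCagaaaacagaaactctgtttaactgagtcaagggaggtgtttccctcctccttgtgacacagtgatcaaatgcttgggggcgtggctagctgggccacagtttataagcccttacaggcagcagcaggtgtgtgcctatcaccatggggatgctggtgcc
Oas1a: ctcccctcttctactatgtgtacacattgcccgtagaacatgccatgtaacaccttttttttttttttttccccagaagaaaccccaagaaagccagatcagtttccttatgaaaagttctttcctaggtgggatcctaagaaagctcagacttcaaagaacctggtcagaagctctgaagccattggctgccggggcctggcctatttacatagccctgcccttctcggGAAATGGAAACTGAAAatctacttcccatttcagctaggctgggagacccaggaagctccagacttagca
Isg15: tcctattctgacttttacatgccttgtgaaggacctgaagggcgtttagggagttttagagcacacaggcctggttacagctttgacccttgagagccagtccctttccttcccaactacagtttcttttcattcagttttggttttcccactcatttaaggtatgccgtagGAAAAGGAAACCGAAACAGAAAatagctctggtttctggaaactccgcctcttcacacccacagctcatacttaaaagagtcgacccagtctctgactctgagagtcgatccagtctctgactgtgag
The windows of Irf7, Irf9, Ifit2, Oasl1, Oasl2, Cmpk2, Ifi44, Ifi35, Xaf1 and Psmb8 held no match to the response element core. The Psmb8 window begins at base 34197945 of chromosome 17, after the start of the gene in the GENCODE annotation at 34197721. It thus does not cover the bases before that start. Of all 29 windows of these genes, 10 share their start with a GENCODE transcript. Dhx58, Ifi27l2a, Mx1, Mx2, Oas2, Parp14, Rtp4, Usp18 and Zbp1 had no window in the table used.

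**Figure D1:**
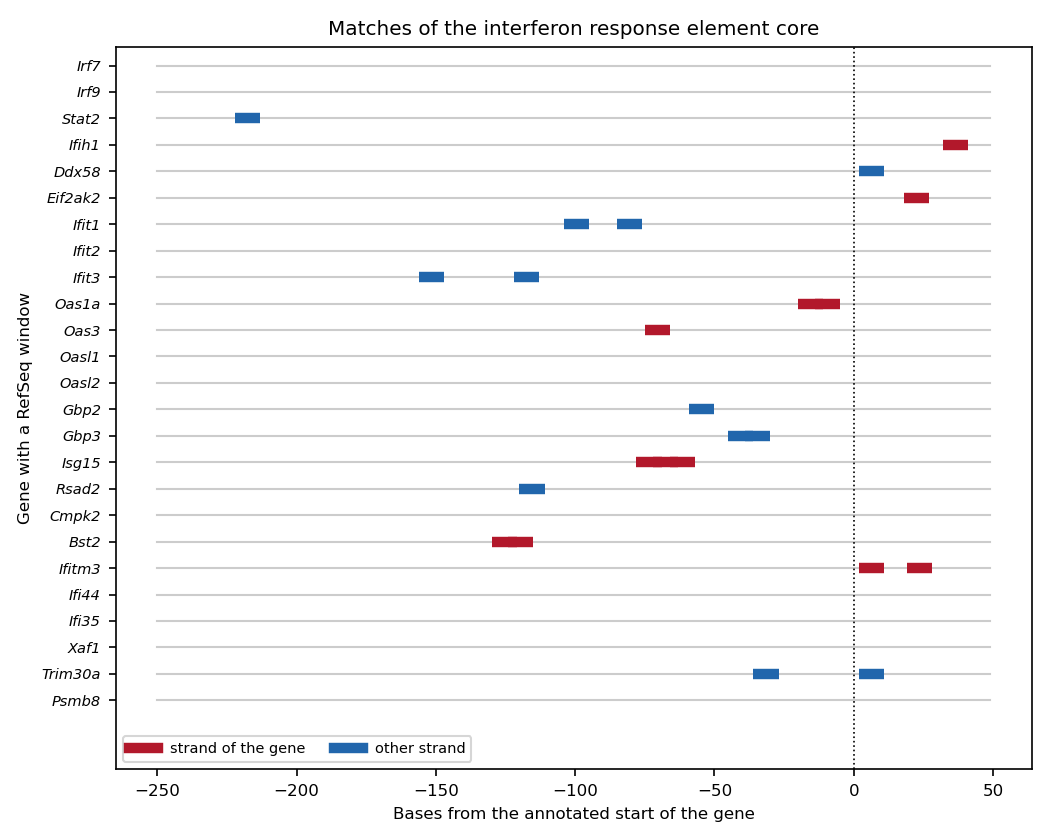
Position of matches to the response element core in the RefSeq windows of 25 interferon-stimulated genes. The x axis gives bases from the annotated start, 1 grey line stands for each gene (the 4 genes with a second annotated start have all their windows on 1 line), and bars are matches on the strand of the gene (red) or the other strand (blue); 15 of the 25 genes carry at least 1 bar.

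Depth ran from 13587139 to 16931584 counts per library in experiment 1, from 19633234 to 23700028 in experiment 2 and from 10085324 to 15925070 in experiment 3. All 34 genes were counted in every library and all 34 passed the filter on low counts in every fit; 28 had at least 20 counts in every library, and the lowest count was 2, of Oas3 in KO (anestrus) replicate 3. No label ties a library to its own animal; p-values thus reflect how far these samples spread, in part perhaps technically. Counts of Fshb itself went against the labels of experiment 1: 0 to 1 in the libraries labelled WT, 43 to 106 in those labelled Fshb(+/-) and 68 to 82 in those labelled Fshb(-/-), and they ran from 119 to 184 in the Fshb(-/-) libraries and 221 to 431 in the rescue libraries of experiment 2. In experiment 3 they were 90 to 114 in KO (anestrus), 60 to 198 in DE, 0 to 51 in PE and 0 to 170 in E. A count per gene cannot tell which of its exons were read; groups are named by their labels throughout and every direction below rests on those labels. As ovary markers, 8 of 8 granulosa genes and 8 of 8 oocyte genes had counts in every library. In CPM (counts scaled to library size), the sum of 12 oviduct epithelium genes was 3316 to 7666 in all PE libraries, DE replicates 1, 2 and 4 and E replicate 3, and 15.1 to 71.9 in the other 8 libraries of experiment 3. In bulk tissue, fewer cells of a type and less RNA per cell cannot be told apart.

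Per base of exon (counts per length, scaled to the same total over all genes), the membrane proteins Ifitm3 and Bst2 stood at the top of the 34, at means of 540.3 and 429.6 over all 33 libraries. Ifi27l2a followed at 118 and Gbp2 at 54.2, and the other 30 genes lay between 0.446 (Oas3) and 34.4 (Eif2ak2). Ifitm3 and Bst2 also exchanged places between groups: per length, Ifitm3 was above Bst2 in PE (1046 against 503) and below it in rescue (299 against 562). The lowest levels were those of Mx1 at 0.819 and Oas3 at 0.446. The low genes carry the larger counting error.

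Most of these genes had their lowest mean in the ovaries labelled Fshb(-/-) of experiment 2 and KO (anestrus) of experiment 3. In experiment 2, 33 of the 34 had a lower mean in Fshb(-/-) than in rescue. In experiment 3, 33 of the 34 had their lowest mean in KO (anestrus), with the highest mean in PE for 19, in E for 12 and in DE for 3. In experiment 1 the highest mean was in Fshb(+/-) for 29, and the lowest was in Fshb(-/-) for 19 and in WT for 14. The exception in experiment 2 was Ifitm3, and in experiment 3 it was Stat2, whose lowest mean was in DE. The shares of all genes with their highest or lowest mean in each group were not counted.

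**Figure D2:**
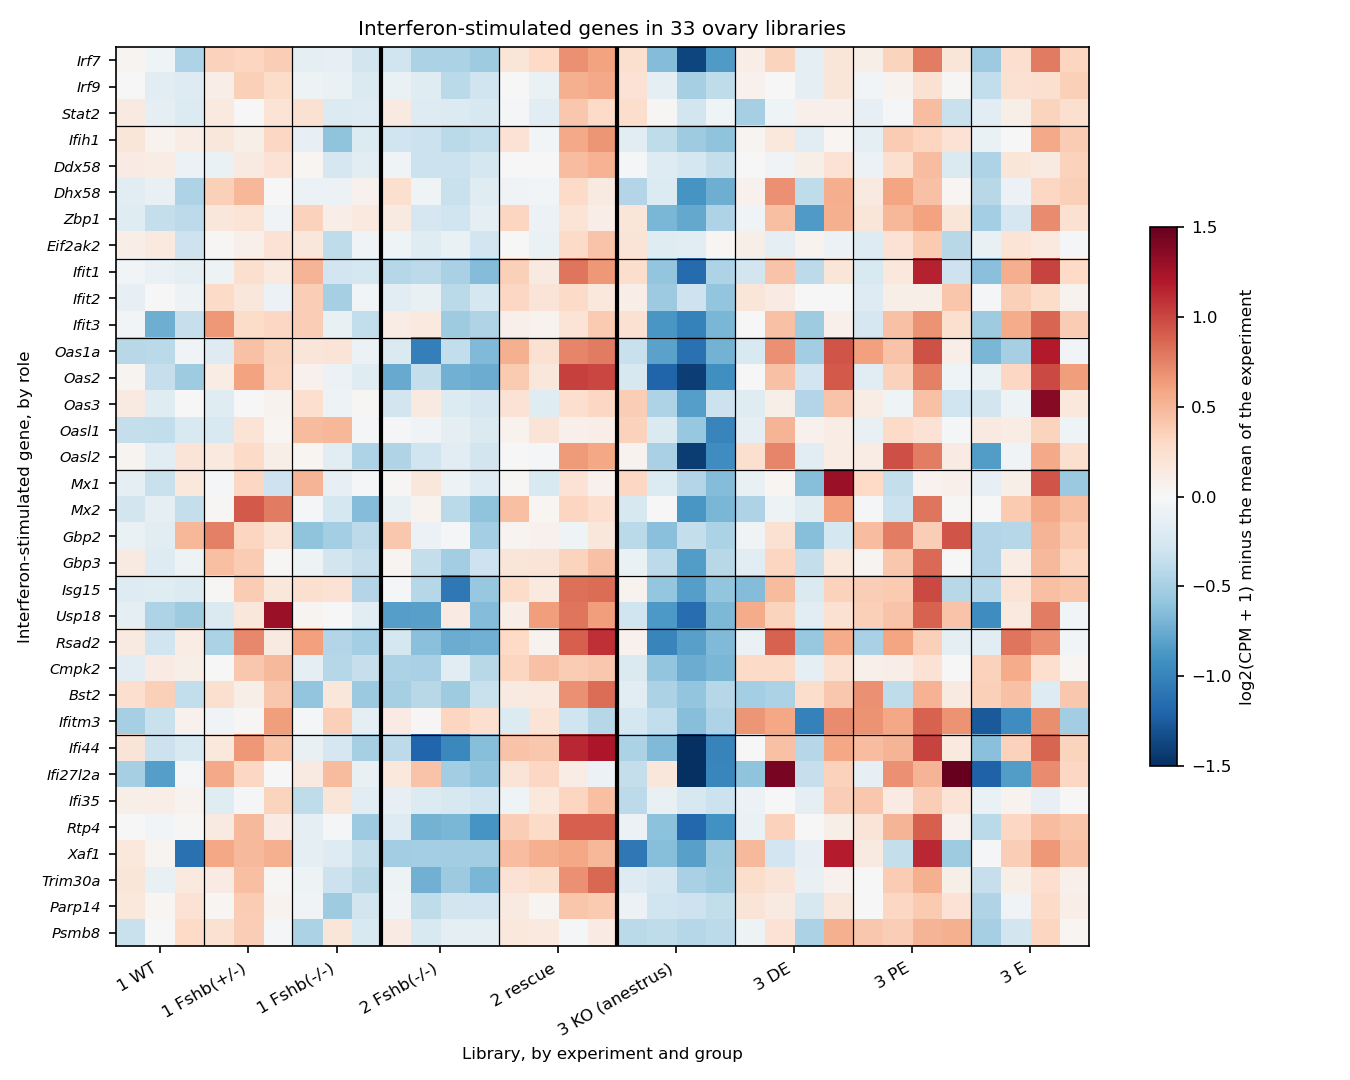
Level of each of 34 interferon-stimulated genes (rows, ordered by role) in each of 33 libraries (columns, by experiment and group), as log2(CPM + 1) minus the mean of that gene over the libraries of the same experiment; differences beyond the ends of the scale take its end colour. The 4 Fshb(-/-) libraries of experiment 2 and KO (anestrus) replicates 2 to 4 of experiment 3 are mostly blue, and 33 of 34 genes have a higher mean in rescue than in Fshb(-/-).

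Rescue ovaries had more transcript of most interferon-stimulated genes than Fshb(-/-) ovaries of experiment 2. Of the 34, 21 rose and none fell at an adjusted p under 0.05 (edgeR quasi-likelihood test, Benjamini-Hochberg adjustment over all genes); of the 16871 genes tested, 15.8% rose and 16.2% fell. The log2 fold change was above 0 for 33 of 34, where 50.1% of all genes were above 0, and its median was 0.62, where that of all genes was 0. Values of the groups did not overlap for 21 genes, against 16.8% of all genes. The rise was largest for Ifi44, Oas2, Oas1a and Rsad2 and ranged over the 21 from 1.39-fold to 4.15-fold.

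Among the regulators, Irf7 and Irf9 rose. Irf7, the transcription factor that amplifies interferon production, was at 7.78, 6.83, 6.82 and 6.51 CPM in the Fshb(-/-) libraries and at 11.3, 12.3, 16.4 and 15.5 CPM in the rescue libraries. Every rescue library was above every Fshb(-/-) library, and rescue replicates 3 and 4 were above 1 and 2. The means were 13.9 ± 2.46 against 6.99 ± 0.551 CPM (SD, n = 4 each). The log2 fold change was 0.99 ± 0.14 (± SE throughout; edgeR adjusted p = 0.00092). Irf9, the DNA-binding subunit of the STAT complex, rose by a log2 fold change of 0.54 ± 0.16 (edgeR adjusted p = 0.036), a call that ended without any 1 Fshb(-/-) library or rescue replicate 3 or 4 (adjusted p up to 0.097), and its partner Stat2 had a log2 fold change of 0.27 ± 0.14 and did not pass (edgeR adjusted p = 0.17). Stat2 was at 51.1, 40.2, 39.9 and 38.98 CPM in Fshb(-/-) and 45.9, 41.3, 61.7 and 56.5 CPM in rescue, and these ranges overlapped.

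Of the 5 nucleic acid sensors, Ifih1 and Ddx58, both helicases that bind double-stranded RNA, rose. The Ddx58 call (log2 fold change 0.52 ± 0.14, edgeR adjusted p = 0.019) ended without Fshb(-/-) replicate 2, 3 or 4 or rescue replicate 3 (up to 0.06). Ifih1 was at 18.4, 18.1, 17 and 17.4 CPM in Fshb(-/-) and at 26.9, 22.2, 34.4 and 36.7 CPM in rescue. The groups did not overlap, with a log2 fold change of 0.76 ± 0.15 (edgeR adjusted p = 0.0047). Eif2ak2, the kinase PKR, was at 49.8, 45.6, 48.3 and 42.5 against 52.2, 48.6, 63.8 and 70.2 CPM. Its groups overlapped, and its log2 fold change of 0.33 ± 0.12 missed the threshold (edgeR adjusted p = 0.054), as did those of Dhx58 and Zbp1.

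The IFIT proteins bind viral RNA and block its translation. Ifit1 was at 4.58, 4.72, 4.38 and 3.78 CPM in Fshb(-/-) and 8.58, 7.27, 12.1 and 10.8 CPM in rescue. It did not overlap between groups and rose by a log2 fold change of 1.15 ± 0.18 (edgeR adjusted p = 0.0015). Ifit2, at 10.7, 11.1, 8.92 and 9.91 against 15.2, 14, 15.03 and 13.6 CPM, also rose, by 0.51 ± 0.10 on the log2 scale (edgeR adjusted p = 0.0042), and Ifit3 did not pass (log2 fold change 0.39 ± 0.21). The 3 genes lie in 1 cluster on chromosome 19, with 7.1 kb between Ifit2 and Ifit3.

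Oligoadenylate synthetases make the activator of RNase L, and 3 of the 5 rose. Oas2 was at 1.98, 2.94, 2.06 and 2.01 CPM in Fshb(-/-) and at 5.64, 4.68, 9.31 and 9.15 CPM in rescue. Oas1a was at 2.14, 0.787, 1.81 and 1.29 against 4.24, 3.26, 5.03 and 5.26 CPM. Neither gene overlapped between groups, and the log2 fold changes were 1.67 ± 0.27 and 1.56 ± 0.31 (edgeR adjusted p = 0.0017 and 0.0051). Oasl2 was at 22.7, 25.3, 27.9 and 25.8 against 31.2, 30.9, 49.3 and 47.3 CPM, with a log2 fold change of 0.64 ± 0.17 (edgeR adjusted p = 0.02). That call ended without Fshb(-/-) replicate 1, 2 or 4 or rescue replicate 4, with an adjusted p up to 0.06. Oas3 and Oasl1 did not pass. Oas1a has near-identical neighbours on chromosome 5, so its count is uncertain.

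The modifier ISG15 and its protease USP18, which also brakes the receptor, both rose. Isg15 was at 3.41, 2.32, 1.14 and 2.01 CPM in Fshb(-/-) and 4.43, 3.97, 6.95 and 6.98 CPM in rescue, without overlap, with a log2 fold change of 1.33 ± 0.33 (edgeR adjusted p = 0.015). Usp18 was at 1.93, 1.95, 4.67 and 2.30 against 4.57, 7.002, 8.08 and 7.03 CPM. Fshb(-/-) replicate 3 lay above rescue replicate 1, so these ranges overlapped, and the log2 fold change was 1.29 ± 0.32 (edgeR adjusted p = 0.014). Of the Mx and guanylate-binding GTPases, Gbp3 rose by 0.60 ± 0.13 on the log2 scale (edgeR adjusted p = 0.0084), and Mx1, Mx2 and Gbp2 did not pass. Gbp2 was at 36.1, 25.3, 26.5 and 18.6 against 27.8, 28.2, 25.7 and 30.3 CPM, with overlapping groups and a log2 fold change of 0.07 ± 0.17.

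Of the 4 membrane and nucleotide effectors 3 rose, and Ifitm3 had a lower mean in rescue. Bst2, or tetherin, which holds budding virions at the membrane, was at 75.4, 79.9, 73.5 and 84.6 CPM in Fshb(-/-) and 117, 119, 173 and 192 CPM in rescue. Rsad2, or viperin, which makes a chain-terminating nucleotide, was at 3.001, 2.11, 1.85 and 1.92 against 4.89, 3.97, 7.93 and 9.26 CPM. Its neighbour Cmpk2, a mitochondrial nucleotide kinase 12.8 kb away on chromosome 12, was at 10.02, 9.90, 12.7 and 10.4 against 18.2, 19.8, 18.98 and 19.2 CPM. None of the 3 overlapped between groups, and for Cmpk2 the 4 rescue libraries lay close together, unlike those of Bst2 and Rsad2, where replicates 3 and 4 were above 1 and 2. The log2 fold changes were 0.94 ± 0.17 for Bst2, 1.55 ± 0.30 for Rsad2 and 0.82 ± 0.10 for Cmpk2 (edgeR adjusted p = 0.0045, 0.0045 and 0.00034). Ifitm3, which blocks entry of virions, was at 72.7, 67.6, 83.4 and 79.4 CPM in Fshb(-/-) and 57.7, 77.1, 53.8 and 49.4 CPM in rescue, with a log2 fold change of -0.35 ± 0.14 (edgeR adjusted p = 0.082). Rescue replicate 2 lay within the Fshb(-/-) range and the other 3 below it.

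Of the 8 other induced proteins 6 rose. Xaf1, a partner of the apoptosis inhibitor XIAP, had the smallest adjusted p of the 34: it was at 12.6, 12.7, 12.7 and 12.7 CPM in Fshb(-/-) and 26.01, 27.3, 28.2 and 26.7 CPM in rescue. Both groups were tight and far apart, with a log2 fold change of 1.09 ± 0.06 (edgeR adjusted p = 9e-06). Ifi44, a cytosolic interferon-induced protein, had the largest fold: it was at 2.75, 1.16, 1.51 and 2.15 CPM in Fshb(-/-) and 5.59, 5.53, 9.81 and 10.4 CPM in rescue. Rtp4, a chaperone of receptor trafficking, was at 9.61, 6.42, 6.52 and 5.55 against 14.6, 13.8, 21.6 and 21.6 CPM, and Trim30a, a ubiquitin ligase of the TRIM family, at 15.8, 9.77, 11.2 and 10.1 against 19.7, 20.4, 27.6 and 31.4 CPM. All 3 were higher in each rescue library than in any Fshb(-/-) library, with log2 fold changes of 2.05 ± 0.33, 1.35 ± 0.21 and 1.08 ± 0.20 (edgeR adjusted p = 0.0017, 0.0019 and 0.0043). Parp14, an ADP-ribosyltransferase, was at 31.7, 24.97, 26.9 and 26.7 against 36.3, 33.8, 44.3 and 43.4 CPM, and Ifi35, a partner of NMI, at 14.1, 13.2, 12.9 and 12.4 against 14.8, 17.3, 19.6 and 21.5 CPM. Neither overlapped between groups, and they rose by 0.52 ± 0.11 and 0.48 ± 0.12 on the log2 scale (edgeR adjusted p = 0.0063 and 0.014). Psmb8, an immunoproteasome subunit, and Ifi27l2a did not pass.

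Luteal, granulosa, endothelial and erythrocyte genes moved in the same libraries. Summed CPM of 8 luteal, theca and interstitial genes was 4705 to 6153 in Fshb(-/-) and 9476, 10791, 21037 and 23502 in rescue replicates 1 to 4. Of the 34 interferon-stimulated genes, 24 had both rescue replicates 3 and 4 above both 1 and 2. The share of all genes that did so was not counted. Over the genes counted, chi-square divided by its degrees of freedom was 53 to 71.7 between these pairs of libraries. Within the pairs it was 9.1 (replicates 1 and 2) and 6.1 (replicates 3 and 4). Of that luteal list 5 of 8 genes rose and 2 fell; of 10 endothelial genes 9 rose and 1 fell (417 to 451 CPM in Fshb(-/-), 521 to 677 in rescue), 5 of 5 erythrocyte genes rose (132 to 203 against 333 to 789 CPM), and 8 of 8 oocyte genes fell (640 to 998 against 277 to 433 CPM). Granulosa genes summed to 2160 to 2440 CPM in Fshb(-/-) and 2940 to 4060 CPM in rescue. Dendritic cell genes summed to 59.4 to 65.9 against 44.3 to 61.8 CPM, and lymphocyte and NK genes to 11.0 to 14.9 against 10.3 to 13.7 CPM. Of 13 macrophage genes 5 rose and 4 fell (355 to 487 against 426 to 821 CPM), and of 8 neutrophil genes 4 averaged under 0.1 CPM over all libraries and none had a count in every library. Beside these counts, 15.8% of all genes rose and 16.2% fell. With rescue replicates 1 and 2 alone, which lie under 15000 CPM on the luteal list, 15 of the 34 still rose and 32 of 34 log2 fold changes stayed above 0. The calls of Irf9, Ddx58, Gbp3, Isg15, Usp18 and Ifi35 ended (edgeR adjusted p 0.051 to 0.15). In both of these libraries 22 genes were higher than in every Fshb(-/-) library, which is easier to reach with 2 rescue libraries than with 4. No share over all genes is given for this subset of libraries or the next. Oviduct genes summed to 457 and 156 CPM in Fshb(-/-) replicates 3 and 4 and to 616 CPM in rescue replicate 2; without these 3 libraries 12 genes rose and Ifitm3 fell, while the calls of Irf9, Ddx58, Ifit2, Oasl2, Gbp3, Isg15, Ifi35, Trim30a and Parp14 ended (edgeR adjusted p 0.051 to 0.14). Their part in the result was not tested.

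**Figure D3:**
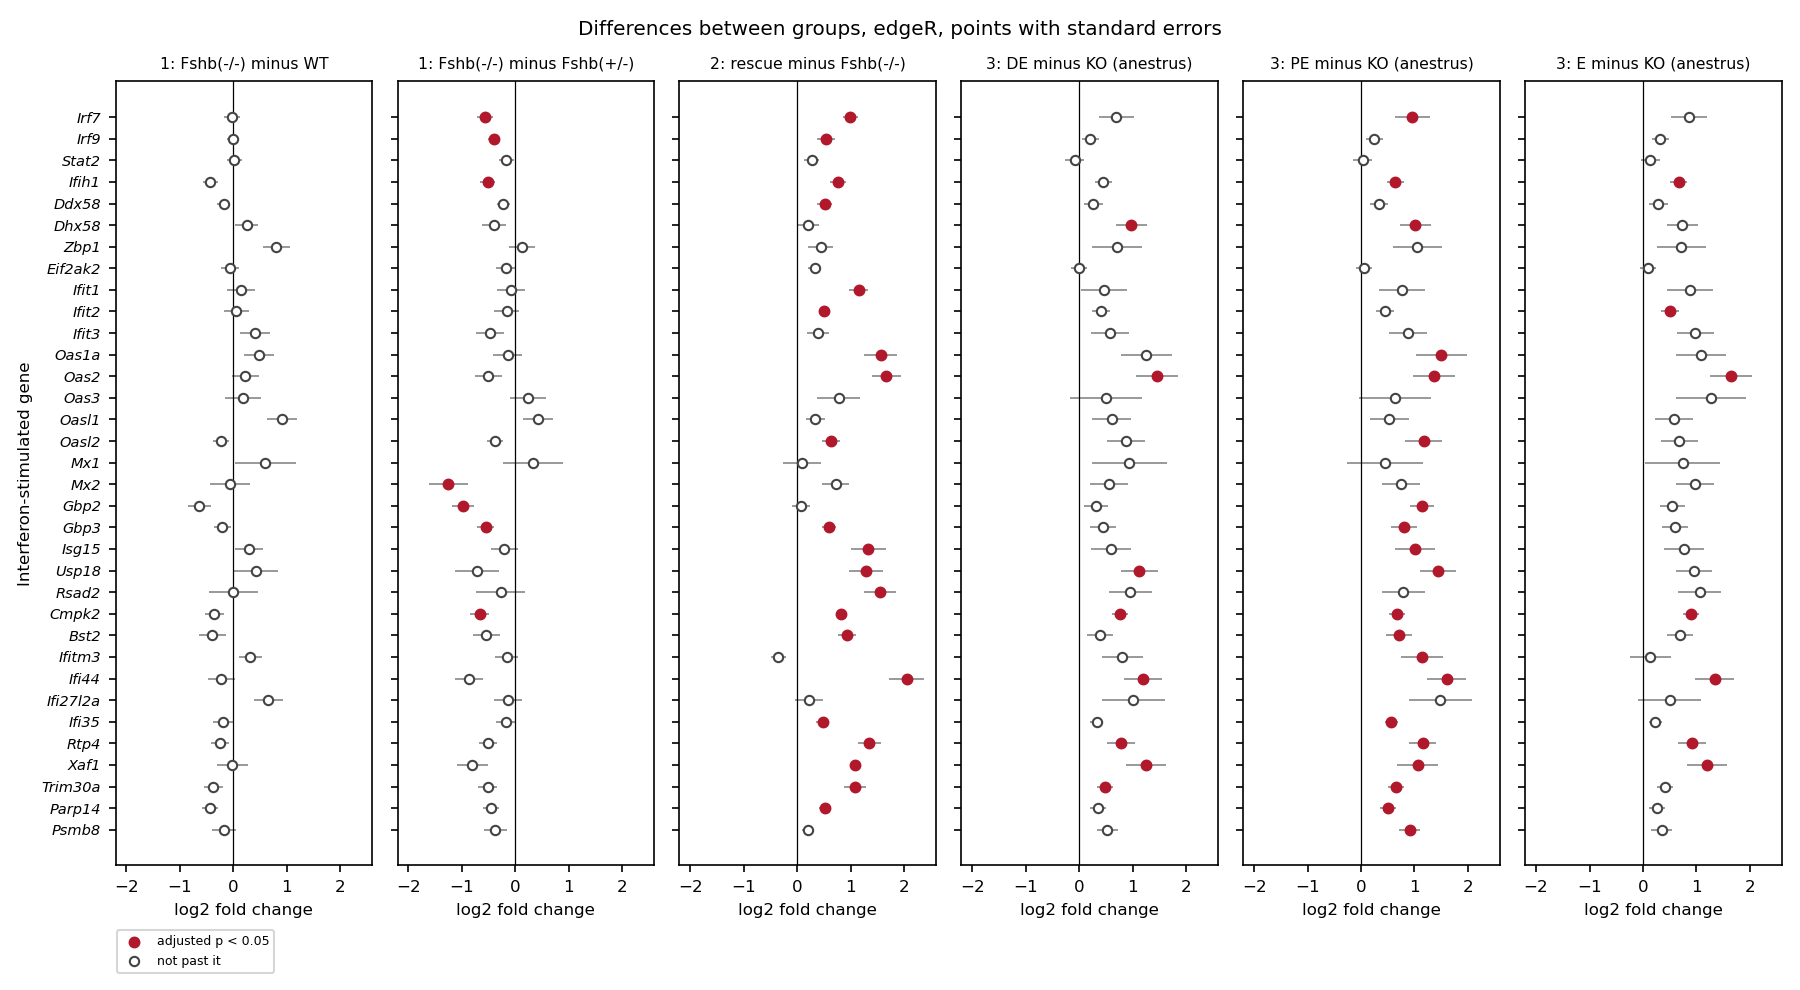
Log2 fold change with its standard error (edgeR) for 34 interferon-stimulated genes in 6 comparisons, 1 panel each; filled red points passed an adjusted p of 0.05. In the rescue panel 21 points are filled, all above 0, and in the panel of Fshb(-/-) minus WT none is.

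Some of these genes also rose in cycling ovaries of experiment 3 against KO (anestrus) ovaries. At PE 20 of the 34 rose and none fell (of the 16944 genes tested 17.5% rose and 16.3% fell), at DE 8 rose and none fell (13.5% and 11.6%), and at E 7 rose and none fell (8.98% in each direction). Log2 fold changes were above 0 for 34 genes at PE (51% of all genes), 33 at DE (51.2%) and 34 at E (50.7%), with medians of 0.8, 0.59 and 0.7, where the medians of all genes were 0.01 in each. Groups did not overlap for 18 genes at PE (20.8% of all genes), 6 at DE (10.8%) and 5 at E (12.5%). These 3 comparisons share the KO (anestrus) libraries.

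Cmpk2, Ifi44, Oas2, Rtp4 and Xaf1 passed at all 3 stages and in the rescue. Cmpk2 was at 16.3, 12.4, 11 and 11.5 CPM in KO (anestrus), 23.6, 23.5, 17.4 and 22.5 in DE, 20.2, 20.6, 22.4 and 19.2 in PE and 24.6, 28.7, 22.99 and 19.5 in E. Every cycling library was above every KO (anestrus) library, with log2 fold changes of 0.76 ± 0.15, 0.68 ± 0.15 and 0.90 ± 0.15 (edgeR adjusted p = 0.003, 0.0041 and 0.00091). Ifi44 was at 6.80, 5.84, 2.75 and 4.38 CPM in KO (anestrus), 9.77, 13.7, 7.05 and 15.2 in DE, 13.9, 14.4, 20.8 and 10.9 in PE and 5.96, 12.7, 18.8 and 12.6 in E. Only E overlapped with KO (anestrus) for Ifi44, through E replicate 1, and the log2 fold changes were 1.20 ± 0.36, 1.60 ± 0.36 and 1.34 ± 0.36 (edgeR adjusted p = 0.026, 0.0052 and 0.019). Oas2 was at 5.21, 2.21, 1.75 and 2.89 CPM in KO (anestrus), 6.32, 8.97, 5.03 and 12.9 in DE, 5.55, 8.36, 11.4 and 5.997 in PE and 5.88, 8.09, 13.6 and 10.4 in E, of which DE replicate 3 alone lay below a KO (anestrus) library, with log2 fold changes of 1.46 ± 0.39, 1.37 ± 0.39 and 1.65 ± 0.39 (edgeR adjusted p = 0.017, 0.017 and 0.011). KO (anestrus) replicate 1 was the highest of its group for Cmpk2, Ifi44 and Oas2, and for 27 of the 34 genes. The share of all genes highest in this library was not counted. The Ifi44 call at DE ended without KO (anestrus) replicate 3 or 4 or DE replicate 2 or 4 (adjusted p up to 0.075) and at E without KO (anestrus) replicate 3 or 4 (up to 0.059). The Oas2 call at DE ended without KO (anestrus) replicate 2 or 3 or DE replicate 4 (up to 0.056) and at PE without KO (anestrus) replicate 3 (0.052).

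Rtp4 was at 18.8, 12.7, 8.25 and 10.1 CPM in KO (anestrus), 18.6, 25.6, 20.1 and 21.4 in DE, 23.03, 28.9, 38.1 and 20.99 in PE and 14.8, 25.1, 27.9 and 27.03 in E, and PE alone did not overlap with KO (anestrus). Its log2 fold changes were 0.78 ± 0.26, 1.15 ± 0.26 and 0.92 ± 0.26 (edgeR adjusted p = 0.043, 0.0057 and 0.025). Xaf1 was at 10.7, 14.7, 12.8 and 15.5 CPM in KO (anestrus), 33.3, 19.1, 21.5 and 54.2 in DE, 25.8, 18.1, 52.4 and 15.9 in PE and 23.2, 30.5, 37.4 and 32.2 in E, every cycling library above every KO (anestrus) library, with wide spreads in DE and PE and log2 fold changes of 1.25 ± 0.38, 1.06 ± 0.38 and 1.20 ± 0.38 (edgeR adjusted p = 0.028, 0.042 and 0.04). Calls of Xaf1 ended at DE without KO (anestrus) replicate 1, 2 or 3 or DE replicate 1 or 4, at PE without any 1 KO (anestrus) library, PE replicate 1 or 3 or E replicate 2, and at E without any 1 KO (anestrus) library or E replicate 2, 3 or 4 (adjusted p up to 0.16). Those of Rtp4 ended at DE without KO (anestrus) replicate 2, 3 or 4, DE replicate 1, 2 or 4, PE replicate 2 or E replicate 2, and at E without KO (anestrus) replicate 2, 3 or 4 or E replicate 2 or 4 (up to 0.12).

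At PE 4 genes rose that did not pass in the rescue, Gbp2, Psmb8, Dhx58 and Ifitm3. A test of that difference for PE alone was not run. Dhx58 also rose at DE, as did Usp18 and Trim30a, with log2 fold changes of 0.98, 1.13 and 0.49 (edgeR adjusted p = 0.027, 0.027 and 0.031). These DE calls ended without any 1 of 4, 6 and 6 of the 16 libraries of experiment 3 (adjusted p up to 0.086). Gbp2 was at 37.99, 32.5, 39.4 and 36.2 CPM in KO (anestrus) and 70.3, 86.9, 65.96 and 98.5 CPM in PE, with a log2 fold change of 1.14 ± 0.23 (edgeR adjusted p = 0.0033). Psmb8 was at 13.4, 13.6, 13.1 and 13.5 against 24.2, 23.5, 26.1 and 26.6 CPM, a rise of 0.91 ± 0.20 on the log2 scale (edgeR adjusted p = 0.0051). Both were higher in every PE library than in any KO (anestrus) library; at DE and E the adjusted p was 0.32 and 0.11 for Gbp2 and 0.066 and 0.24 for Psmb8. Usp18 at PE was at 9.63, 10.2, 14.3 and 10.2 against 5.74, 3.56, 2.75 and 4.19 CPM, without overlap, with a log2 fold change of 1.44 ± 0.34 (edgeR adjusted p = 0.0067). The other genes that rose at PE were Irf7, Ifih1, Oas1a, Oas2, Oasl2, Gbp3, Isg15, Cmpk2, Bst2, Ifi44, Ifi35, Rtp4, Xaf1, Trim30a and Parp14, with log2 fold changes of 0.51 to 1.6. Leaving out single libraries ended the PE calls of Irf7 (KO (anestrus) replicate 2, 3 or 4, PE replicate 2, 3 or 4), Bst2 (KO (anestrus) replicate 2, 3 or 4, PE replicate 1, 3 or 4), Oas1a (KO (anestrus) replicate 2, 3 or 4, PE replicate 3) and Oasl2 (KO (anestrus) replicate 3 or 4, PE replicate 2), with adjusted p up to 0.1. It also ended those of Dhx58 (KO (anestrus) replicate 3), Gbp3 (KO (anestrus) replicate 3, PE replicate 3), Isg15 (KO (anestrus) replicate 2, 3 or 4, DE replicate 4, PE replicate 1, 2 or 3, E replicate 2) and Ifitm3 (any 1 KO (anestrus) or PE library), with adjusted p up to 0.13. Of the IFIT family none passed at PE. The 20 genes that rose at PE and the 21 that rose in the rescue, which share no library, had 16 in common, 80.0% of the first list and 76.2% of the second. The same overlap over all genes was not counted, so it is unknown whether these genes share more calls than others.

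At E, Ifih1, Oas2 and Cmpk2 passed under all settings tried. Ifih1 was at 29.1, 24.9, 22.4 and 21.2 CPM in KO (anestrus) and 30.6, 32.7, 49.4 and 42.96 CPM in E, without overlap, with a log2 fold change of 0.67 ± 0.16 (edgeR adjusted p = 0.01). Ifit2 was at 18.2, 11.3, 13.5 and 10.9 against 16.6, 22.04, 20.6 and 17.7 CPM, and its call (log2 fold change 0.51 ± 0.17, edgeR adjusted p = 0.049) ended without any 1 of 9 libraries (adjusted p up to 0.13), KO (anestrus) replicates 2, 3 and 4, DE replicates 2 and 4, PE replicate 2 and E replicates 2, 3 and 4. Eif2ak2 and Stat2 stood nearly level across experiment 3, with log2 fold changes against KO (anestrus) of 0.00 ± 0.15, 0.06 ± 0.15 and 0.09 ± 0.15 for Eif2ak2 and -0.08 ± 0.18, 0.03 ± 0.18 and 0.14 ± 0.18 for Stat2 at DE, PE and E. None of these 6 passed.

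**Figure D4:**
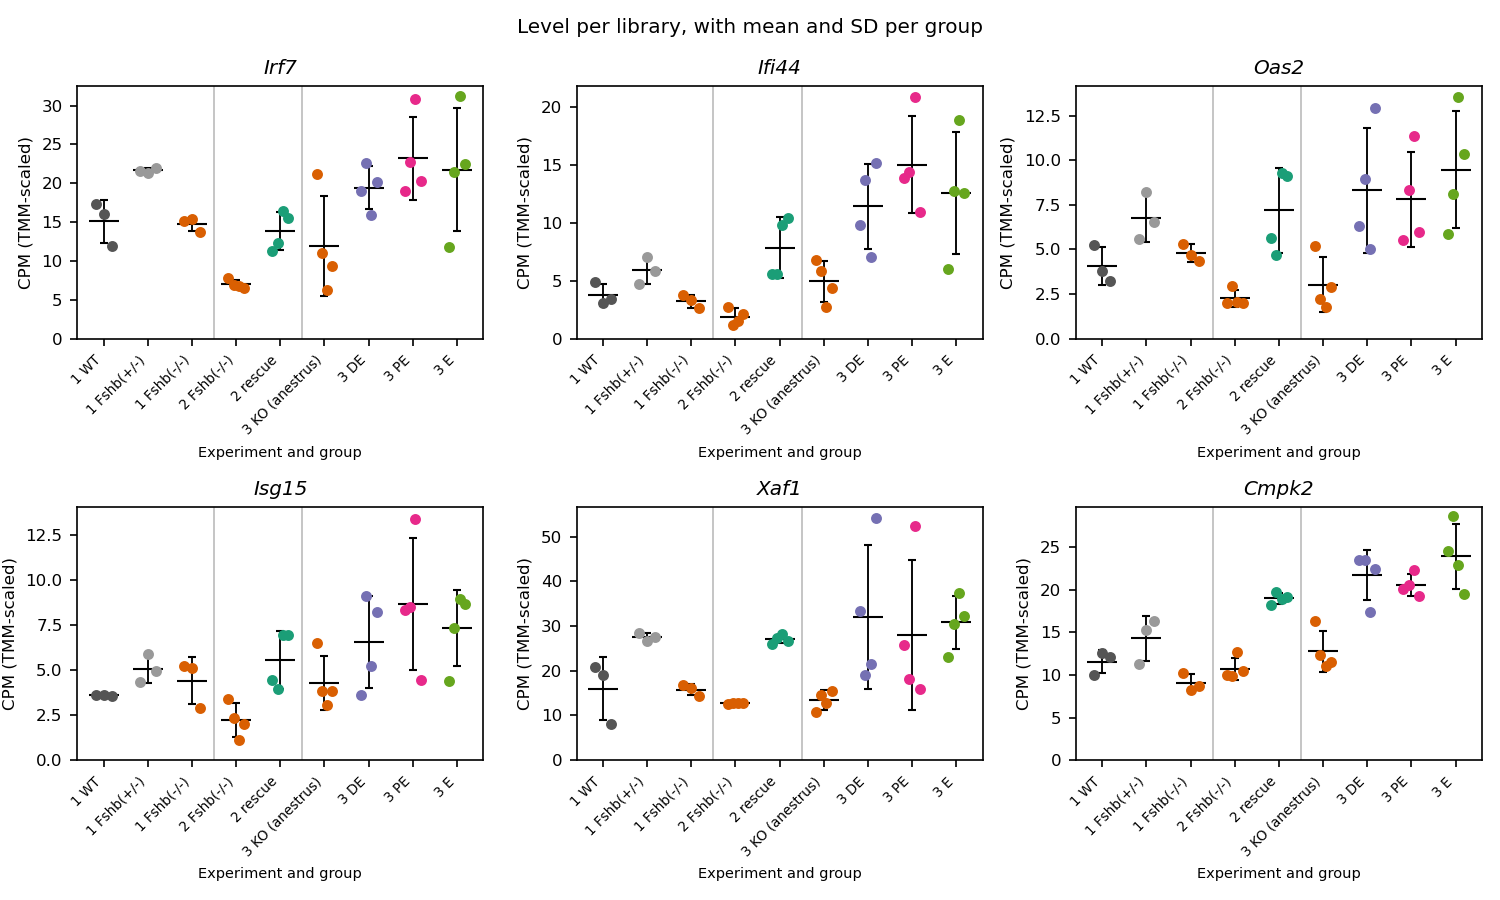
CPM (TMM-scaled) of Irf7, Ifi44, Oas2, Isg15, Xaf1 and Cmpk2 in each library; points are libraries, horizontal bars group means and whiskers SDs, with 3 libraries per group in experiment 1 and 4 in experiments 2 and 3. For Xaf1 the 4 Fshb(-/-) libraries of experiment 2 sit at 12.6 to 12.7 and the 4 rescue libraries at 26.0 to 28.2, and in DE and PE the libraries spread from 15.9 to 54.2.

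The number of genes that passed in experiment 3 moved with single libraries. The PE count of 20 was 10 without KO (anestrus) replicate 3, 13 without replicate 4 and 13 without PE replicate 3. The DE count of 8 was 13, 3, 1 and 3 without KO (anestrus) replicates 1 to 4, 5, 3, 16 and 1 without DE replicates 1 to 4, and 14 without E replicate 1 or 3. The E count of 7 was 12, 4, 3 and 3 without KO (anestrus) replicates 1 to 4, 12 without DE replicate 3, and 17, 4 and 4 without E replicates 1, 2 and 4. In these fits no gene that passed with all libraries changed direction. The shares of all genes that passed in these fits are not given.

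Oviduct epithelium genes split the cycling libraries in the same way as several of these genes. DE replicate 3, without oviduct signal, was the lowest DE library for 24 of the 34. E replicate 3, with oviduct signal, was the highest E library for 25, and 18 genes did both. The shares of all genes that did so were not counted. Over the genes counted, chi-square divided by its degrees of freedom was 61.4 to 73.6 between DE replicate 3 and the other DE libraries, and 33.9 to 42.7 among those. For E replicate 3 these values were 36.9 to 68 and 23.9 to 31.9. Ifitm3 followed the split: it was at 211, 199.6, 65.5 and 218 CPM in DE, 212, 200.2, 246 and 213 in PE, 54.99, 69.6, 216 and 92.7 in E and 110.3, 103, 85.3 and 96.1 in KO (anestrus). Each of the 8 oviduct-rich libraries was at 199.6 CPM or more, and each of the other 8 at 110.3 or less. Bst2 did not follow it: E replicate 3 was the lowest E library at 99.5 CPM, beside 146, 154 and 150.3 in the others, and DE replicates 1 and 2, at 79.4 and 81.5, were below DE replicate 3 at 137, while oviduct-rich DE replicate 4 was at 150.9. In a fit with the log2 of the summed oviduct CPM as a covariate, 1 gene passed at PE (Bst2, log2 fold change 1.19, edgeR adjusted p = 0.028; that of Ifitm3 was -0.18, turned from 1.14), 1 at DE (Cmpk2, 0.67 and 0.031) and 8 at E, and 30, 27 and 33 of 34 log2 fold changes were above 0; all 4 PE libraries are oviduct-rich and all 4 KO (anestrus) libraries are not, so at PE the oviduct signal and the stage cannot be told apart. Among the 7 E and KO (anestrus) libraries under 100 CPM of oviduct genes, Ifih1, Oas2, Cmpk2, Bst2, Ifi44 and Xaf1 rose and 33 of 34 log2 fold changes were above 0. Among these 7 libraries the log2 fold change of Ifitm3 was -0.42, where it was 0.14 with all E and KO (anestrus) libraries. No share of all genes is given for the covariate fit or for these 7 libraries. It is thus unknown whether calls of other genes ended alike. Luteal genes were at 3318 to 4583 CPM in KO (anestrus), 4822 to 10934 in DE, 4216 to 9326 in PE and 6596 to 19494 in E, and oocyte genes at 807 to 950, 120 to 496, 178 to 307 and 354 to 532 CPM. Endothelial genes were at 411 to 458 CPM in KO (anestrus), 534 to 690 in DE, 514 to 600 in PE and 502 to 711 in E, and of the 10 genes 7 rose at DE, 3 rose and 1 fell at PE and 5 rose and 1 fell at E. Erythrocyte genes were at 85.6 to 124, 138 to 619, 132 to 434 and 95.9 to 369 CPM, with 3 of 5 higher at DE, 2 at PE and none at E. Of all genes 13.5% rose and 11.6% fell at DE, 17.5% rose and 16.3% fell at PE, and 8.98% moved in each direction at E. Macrophage genes were at 443 to 495, 461 to 577, 455 to 1070 and 519 to 626 CPM, and at PE 4 of the 13 rose and 1 fell. Neutrophil genes, near the floor, were at 0.275 to 0.91 CPM in KO (anestrus), 0.304 to 11.0 in DE, 6.52 to 10.6 in PE and 0.44 to 21.8 in E. The lowest DE value was that of replicate 3, and the highest E value that of replicate 3. Their part in the result was not tested.

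**Figure D5:**
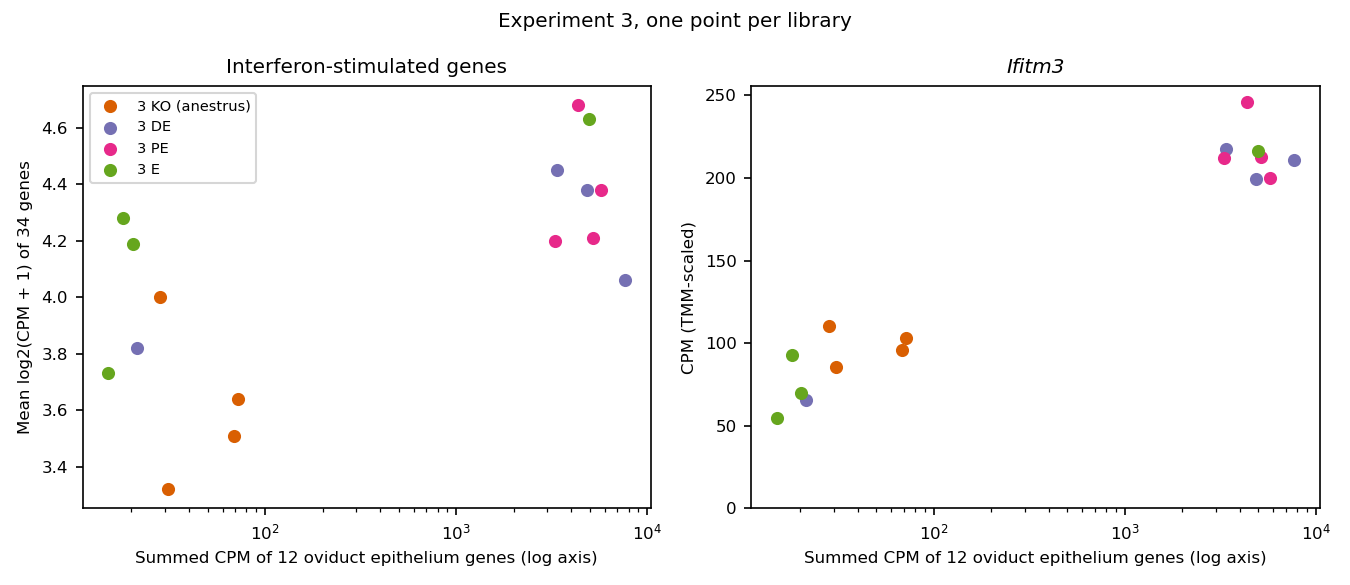
Left, mean log2(CPM + 1) of the 34 interferon-stimulated genes; right, CPM of Ifitm3; both against the summed CPM of 12 oviduct epithelium genes on a log axis, 1 point per library of experiment 3. On the right the 8 oviduct-rich libraries are at 199.6 CPM or more and the other 8 at 110.3 or less, and on the left E replicates 2 and 4, without oviduct signal, lie above all KO (anestrus) libraries, while E replicate 1 and DE replicate 3, also without it, at 3.73 and 3.82, lie below KO (anestrus) replicate 1.

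Between the cycling stages no difference passed. For PE against DE edgeR called 0 of the 34 (0% of all genes), with 1 at an unadjusted p under 0.05 (2.4% of all genes) and 0 by DESeq2 or limma. For E against PE it called 0 (0% of all genes), with 4 at an unadjusted p under 0.05 (18.7%), 0 by DESeq2 and 4 by limma. For DE against E it called 0 (0% of all genes), with 0 at an unadjusted p under 0.05 (10.6%) and 0 by DESeq2 or limma. Median log2 fold changes were 0.22, -0.07 and -0.1. Psmb8 and Ifi35 were higher in every PE library than in any E library, the 2 genes of 34 without overlap there (4.41% of all genes), and without E replicate 3 edgeR called 3 genes for E against PE and 1 for DE against E.

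In experiment 1 no interferon-stimulated gene passed the test between ovaries labelled Fshb(-/-) and WT. Of the 34, 0 passed (7.87% of 17223 genes tested did), 6 had an unadjusted p under 0.05 (25.1% of all genes did), and the smallest adjusted p was 0.081 by edgeR, of Oasl1; DESeq2 called 1 gene and limma 4. Log2 fold changes were above 0 for 15 (49.2% of all genes) and below 0 for 19 (50.8%), with a median of -0.02 (that of all genes was -0.01) and a range of -0.63 to 0.92. Irf7 was at 17.3, 16 and 11.9 CPM in WT and 15.1, 15.4 and 13.7 CPM in Fshb(-/-), a log2 fold change of -0.03 ± 0.15. The ranges overlapped, and Xaf1, Stat2 and Rsad2 had log2 fold changes of -0.02 ± 0.29, 0.02 ± 0.14 and 0.00 ± 0.46. Oasl1 was at 1.70, 1.67 and 1.96 against 3.82, 3.88 and 2.40 CPM, and Gbp2 at 30.9, 29.3 and 47.3 against 21.6, 22.9 and 25.01 CPM. Neither overlapped, Oasl1 higher and Gbp2 lower in Fshb(-/-), and they are among the 3 higher and 3 lower genes without overlap, beside 18.3% and 17% of all genes.

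Ovaries labelled Fshb(+/-) had the highest levels of experiment 1 for most of these genes. Against WT none of the 34 passed (0.0871% of all genes did); 12 had an unadjusted p under 0.05 (10.4% of all genes), and DESeq2 and limma called 0. The log2 fold change was above 0 for 32 of 34 (49.9% of all genes), with a median of 0.33, and 11 genes were higher without overlap (6.11% of all genes). Between Fshb(-/-) and Fshb(+/-), which uses the same Fshb(+/-) libraries, 7 fell and none rose, where 7.9% of all genes fell and 9.1% rose: Irf7, Irf9, Ifih1, Mx2, Gbp2, Gbp3 and Cmpk2. For 30 of 34 the log2 fold change was below 0 (52.1% of all genes), with a median of -0.38, and 14 genes were lower without overlap (18.6% of all genes).

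Gbp2, a GTPase of the interferon-gamma response, was at 56.8, 41.9 and 38.4 CPM in Fshb(+/-) and 21.6, 22.9 and 25.01 CPM in Fshb(-/-). It fell, with a log2 fold change of -0.98 ± 0.21 (edgeR adjusted p = 0.014) without overlap, and the call ended without Fshb(-/-) replicate 1 or 2 (up to 0.064). Irf7 was at 21.6, 21.4 and 21.99 against 15.1, 15.4 and 13.7 CPM (-0.56 ± 0.15, edgeR adjusted p = 0.032), Cmpk2 at 11.3, 15.3 and 16.3 against 10.2, 8.21 and 8.73 CPM (-0.66 ± 0.18, 0.036) and Ifih1 at 24.9, 23.5 and 27.6 against 20.2, 14.2 and 19.1 CPM (-0.51 ± 0.14, 0.041), log2 fold changes and adjusted p in parentheses. None of these overlapped between groups, and Irf7 was tight in both. The calls rest on few libraries: the Irf7 call ended without any 1 of the 6 libraries compared or WT replicate 2, the Cmpk2 call without any 1 of Fshb(-/-) replicates 1 to 3, Fshb(+/-) replicates 2 and 3 and WT replicate 2, and the Ifih1 call without any 1 of the 9 libraries of the experiment (adjusted p up to 0.11). The calls of Irf9, Mx2 and Gbp3 ended without any 1 of 6, 8 and 8 of the 9 libraries (up to 0.14). The count of 7 was 4 and 1 without WT replicates 1 and 2, 1 and 2 without Fshb(+/-) replicates 2 and 3, and 0, 1 and 1 without Fshb(-/-) replicates 1, 2 and 3. The shares of all genes in these fits are not given. Luteal genes were at 6466 to 16586 CPM in WT, 11691 to 21708 in Fshb(+/-) and 4344 to 5801 in Fshb(-/-), and oocyte genes at 313 to 393, 209 to 337 and 603 to 777 CPM. Endothelial genes were at 628 to 703 CPM in WT, 668 to 734 in Fshb(+/-) and 426 to 527 in Fshb(-/-). Of the 10 genes 7 fell in Fshb(-/-) against Fshb(+/-), while 6 fell and 1 rose against WT. Of all genes 7.9% fell and 9.1% rose against Fshb(+/-), and 7.87% passed in either direction against WT. Macrophage genes were at 482 to 762 CPM in WT, 536 to 1080 in Fshb(+/-) and 368 to 496 in Fshb(-/-). Oviduct genes were at 1554 CPM in Fshb(+/-) replicate 3 and 19.9 to 66.4 in the other 8. Their part in the result was not tested.

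Whether the experiments differed was tested in joint fits. The difference of Fshb(-/-) from WT in experiment 1 was set against that of Fshb(-/-) from rescue in experiment 2. Of the 34 genes, 0 passed (edgeR; 0.153% of all genes did), 18 had an unadjusted p under 0.05 (6.64% of all genes) and DESeq2 called 5. The difference was above 0, toward a lower level in Fshb(-/-) of experiment 2, for 32 of 34 (49.6% of all genes), with a median of 0.67; the largest were Oas1a at 2.05 ± 0.43 (SE) and Oas2 at 1.9 ± 0.38 (adjusted p = 0.094 and 0.072). Without WT replicate 3 or rescue replicate 2, edgeR called 1 gene. Experiment 1 against experiment 3, where KO (anestrus) was set against the mean of the 3 stages, gave 0 (0.0109% of all genes), 14 at an unadjusted p under 0.05 (13.5%), a median of 0.78 and 1 gene by DESeq2. Experiment 2 against experiment 3 gave 0 (0.183% of all genes), 4 at an unadjusted p under 0.05 (17.6%), a median of -0.06 and 0 by DESeq2.

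Genes around the 34 were described by lists of the pathway. In rescue against Fshb(-/-), of 6 interferon receptor genes 1 rose and 2 fell, of 10 sensing adaptors and kinases 3 rose and 1 fell, of 9 feedback inhibitors 1 rose and 1 fell, and of 3 chemokine genes tested none passed. Of 37 further antiviral genes tested 13 rose and 3 fell, of 12 interferon-gamma-inducible GTPases 5 rose, and of 12 antigen processing genes 3 rose; of all genes 15.8% rose and 16.2% fell. Ifi204, a DNA sensor of the PYHIN family, showed the largest change of these: it was at 6.32, 4.77, 3.95 and 3.62 CPM in Fshb(-/-) and 19.5, 22.9, 30.3 and 28.4 CPM in rescue, without overlap, a log2 fold change of 2.48 ± 0.22 (edgeR adjusted p = 8.2e-05). Ifi204 was also lower in Fshb(-/-) than in WT of experiment 1, at 5.71, 2.80 and 5.03 against 17.3, 29.4 and 13.3 CPM (log2 fold change -2.16 ± 0.46, edgeR adjusted p = 0.028), with no overlap. At PE, 14 of 37 further antiviral genes, 8 of 13 GTPases and 7 of 12 antigen processing genes rose against KO (anestrus), and 3 of the 37 fell. Of the receptor genes none of 6 passed at PE, of the adaptors and kinases 2 of 10 rose and 1 fell, of the feedback inhibitors 2 of 9 rose and 2 fell, and of the chemokine genes none of 3 passed; of all genes 17.5% rose and 16.3% fell. These lists were chosen with earlier results of these data known.

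Copies of Oas1 that mouse oocytes express fell in rescue, where Oas1a, Oas2 and Oasl2 rose. Oas1c was at 30.5, 42.8, 26.01 and 32.3 CPM in Fshb(-/-) and 19.2, 22.4, 16.2 and 14.2 CPM in rescue, and every rescue library was below every Fshb(-/-) library. It fell, with a log2 fold change of -0.84 ± 0.17 (edgeR adjusted p = 0.006), and Oas1d, Oas1e and Oas1h fell too, 4 of the 5 copies tested. At PE 4 of 4 fell against KO (anestrus), with log2 fold changes of -1.53 ± 0.26 to -1.76 ± 0.40. In experiment 1, Oas1c, Oas1d and Oas1e rose in Fshb(-/-) against WT, 3 of 4, with log2 fold changes of 0.90 ± 0.13, 0.80 ± 0.14 and 0.75 ± 0.19. Oocyte marker genes moved with them: 8 of 8 fell in rescue and at PE, and 8 of 8 rose in Fshb(-/-) against WT of experiment 1. Of all genes 16.2% fell in rescue and 16.3% at PE, and 7.87% passed in either direction between Fshb(-/-) and WT. Reads of near-identical copies can be divided among them by the quantifier, so these counts are uncertain.

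Interferon genes themselves were at or near 0. The table holds 21 ligand genes, of which 15 had no count in any library (counting error alone leaves room for up to 3) and 5 had 14 counts or fewer over all 33. Ifne, an interferon of epithelia of the reproductive tract, had the remaining counts: 124 in the 12 libraries over 100 CPM of oviduct genes and 3 in the other 21.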

How the data were processed

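RNA was measured in 33 libraries of mouse ovary. Per the labels' protocols RNA was cleaned on columns and treated with DNase, and experiment 3 used poly(A) selection, a KAPA kit and paired-end NovaSeq reads; for experiments 1 and 2 no kit or strand is stated in the labels. Values deposited by the authors are estimated counts for each Ensembl gene (expected counts, not whole numbers in 10.5 to 20.1% of values); the submitters' processing notes name Salmon, DESeq2 and the GRCm38 build, with no version. The counts were rounded. Symbols came from GENCODE M21: of 54347 identifiers 54094 found a symbol (53307 of them also by version), and the other 253 held 0.0055% of counts.

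A separate fit was made for each experiment in edgeR 4.0.16 (R 4.3.3): TMM factors, filterByExpr by group, robust quasi-likelihood fits in which all groups of an experiment share the spread, and p-values adjusted by Benjamini-Hochberg over all genes tested, called under 0.05. CPM values are TMM-scaled; a pseudocount of 1 was used for log2(CPM + 1). Each difference between experiments was a contrast in a joint fit. The test was tried on simulated counts for the real genes and recovered 112 of 200 changed genes for Fshb(-/-) against WT, 172 of 200 for rescue against Fshb(-/-) and 140 of 200 for DE against KO (anestrus). The changed genes were drawn above a floor of CPM and all moved by the same fold, up or down. Recovery of low genes or of smaller changes was thus not tried. Replicates of a group differed by more than sampling noise (their chi-square, divided by its degrees of freedom, ran from 5.6 to 73.6).

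Alternatives were DESeq2 1.42.0, limma 3.58.1 (voom, weighting samples by quality), other scaling (median of ratios), other filters, fits of the compared groups alone, a block for the replicate number and leaving out each library. A covariate of oviduct genes and subsets of libraries by oviduct or luteal genes were chosen after seeing the data. The 34 genes and all lists were chosen with earlier results of these data known. Values in every library are given for the 16 genes with the smallest adjusted p in any comparison and for the gene of highest CPM in each of 8 roles; Isg15, Oasl1 and Ifitm3 were added after their values were seen. Promoters were RefSeq windows of GRCm38.p6. Depth sets the precision of the low genes: intervals and floors cover counting error only. One list, of signalling genes of the pathway, is not reported here.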

Additional observations from a re-analysis of the deposited data

Results flagged for a closer look

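In 10 of the 204 sets of 1 gene in 1 group of 4 libraries, a single library stood apart from the other 3; chance gives about 1 in 20, or 10.2. Values are CPM. Among the Fshb(-/-) libraries of experiment 2, Stat2 stood at 51.1 in replicate 1 (39.0 to 40.2 in the others), Oas2 at 2.94 in replicate 2 (1.98 to 2.06), Oas3 at 0.745 in replicate 2 (0.305 to 0.379) and Usp18 at 4.67 in replicate 3 (1.93 to 2.3). DE replicate 3, which lacks oviduct signal, was low for Cmpk2 at 17.4 (22.5 to 23.6), Ifitm3 at 65.5 (199.6 to 217.5) and Parp14 at 37.3 (48.7 to 50.6). Usp18 was at 14.3 in PE replicate 3 (9.63 to 10.2). E replicate 3, the E library with oviduct signal, was high for Oas3 at 4.32 (0.702 to 1.3) and low for Bst2 at 99.5 (146 to 154). The part of oviduct RNA in these values was not tested.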

How the results depend on the processing

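Of the genes that passed, Ifitm3 at PE alone changed direction under an alternative tried (log2 fold change 1.14, and -0.18 with the oviduct covariate); among values that did not pass, some changed sign, such as Gbp2 in rescue (0.07, and -0.14 under 100 CPM of oviduct genes). Counts of the 34 that passed moved as follows. Here and above, no share of all genes stands beside a count from an alternative fit, so it is unknown whether other genes moved alike. For Fshb(-/-) against WT (0) DESeq2 gave 1 and limma 4. For Fshb(-/-) against Fshb(+/-) (7) DESeq2 gave 12, limma 15, no filter on low counts 1 and only the groups compared 3, with 0 to 5 when single libraries were left out. For rescue against Fshb(-/-) (21) the 5 libraries under 100 CPM of oviduct genes gave 13, and leaving out single libraries 18 to 24. Against KO (anestrus), DE (8) gave 13 by DESeq2, 16 by limma, 5 with no filter, 1 with the oviduct covariate and 1 to 16 without single libraries; PE (20) gave 1 with the covariate and 10 to 23 without single libraries; E (7) gave 14 by DESeq2, 11 by limma and 3 to 17 without single libraries. For E against PE (0) limma gave 4 and leaving out single libraries 0 to 3, and for DE against E (0) the latter gave 0 to 1. Experiment 1 against 2 (0) gave 5 by DESeq2 and 0 to 1 without single libraries, and experiment 1 against 3 (0) gave 1 by DESeq2. The cause was not tested. Replicate numbers did not pair the libraries (correlations of deviations -0.75 to 0.24, over 0.1 in 7 of 37 pairs); with the replicate block the calls of Irf9, Ddx58, Isg15 and Ifi35 in rescue ended, and the counts were 4 for Fshb(-/-) against Fshb(+/-), 17 for rescue, 4 for DE, 14 for PE, 3 for E and 0 for the other comparisons. With total-count scaling 33 of 34 genes still had the higher mean in rescue. Counts of 2 to 20 per library limit Oas3, Mx1 and other low genes.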
